A study of Mus musculus with 69 samples.

Results

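Xrcc4, Thap2, Erh, Serpini1 and Lsm7 are 5 mouse genes named on more H3K79me2 peak length in ELS than in Standard nucleus accumbens. ELS mice were exposed to early life stress, and Standard mice were reared under Standard conditions. The 5 genes were chosen from the authors' annotated peak lists, 1 per rearing group, by summing the widths of the distinct peaks whose line names the gene. With peaks clipped to each gene instead, the ELS length was the smaller in 5 of the 5. Of 12673 genes named in either list, 1298 (10.2%) were longer in the ELS list, and these are 5 of them. The lengths, positions and folds of their peaks are therefore a description, with no test, and there is 1 list per group, so these values have no replicate error. The RNA counts, which the choice did not use, were tested.

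All animals were male. RNA from whole tissue was sequenced in 4 groups of 8 libraries: Standard GFP and ELS GFP, which carried the GFP control, Standard Dot1l overexpression, and ELS Dot1l knockdown. Chromatin came from tissue punches of Standard and ELS animals, with 9 H3K79me2 libraries in each rearing group, 9 Standard inputs and 10 ELS inputs. Neither the labels nor the files state the age, the form of the stress, or the promoter and cells that carry each construct, and no Standard knockdown or ELS overexpression group was analysed here.

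Methylation of histone H3 at lysine 79 is laid down by DOT1L, the enzyme that the 2 manipulated groups target. The mark spreads over the first part of transcribed genes, beginning shortly after the start site. Where a pair of genes is transcribed away from a shared start region, both sides of that region can carry it, and a peak on the upstream side of one gene lies in the body of the other.

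The 5 genes have different roles. Lsm7 encodes a subunit of the LSm rings, which bind U6 snRNA in the spliceosome and also act in mRNA decay. Erh encodes a small, conserved nuclear protein that takes part in RNA processing. XRCC4 is the partner of DNA ligase IV in non-homologous end joining. Serpini1 encodes neuroserpin, a serpin secreted by neurons that inhibits tissue plasminogen activator. Thap2 encodes a protein with a THAP zinc finger, a DNA-binding domain.

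All 5 have a divergent neighbour. The share of all 12673 named genes that have one was not counted, so the trait is not shown to be particular to these 5. Each gene is read away from a second gene on the other strand: Lsm7 from Sppl2b (an intramembrane protease), Erh from Slc39a9 (a zinc transporter), Xrcc4 from Tmem167 (a Golgi membrane protein), Serpini1 from Pdcd10 (an adaptor of endothelial junctions) and Thap2 from Zfc3h1 (a cofactor of the nuclear RNA exosome). By the transcripts in the lists, the starts of a pair lay 66 bases apart for Lsm7, 126 for Xrcc4, 524 for Thap2 and 691 for Serpini1. The Erh and Slc39a9 transcripts overlapped by 126 bases at their starts. RefSeq (GRCm38.p6, the assembly that mm10 denotes) had a promoter for 5 of the 5 genes, and placed the starts of Erh and Slc39a9 104 bases apart without overlap.

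For the 3 closest pairs the RefSeq table holds every base between the 2 starts. Those stretches are shown because they are the shared start region that lies between the peaks discussed below, and neither list has a peak on any of them. Each reads 5′ to 3′ on the strand of the named gene and ends at the base before its start. Capitals mark matches to the searched motifs: the GC box GGGCGG, the CCAAT box, the TATA box TATAAA, the ETS-type CCGGAAG and the NRF1 core GCATGC, on either strand.
Lsm7 to Sppl2b, chr10:80855210-80855274, minus strand: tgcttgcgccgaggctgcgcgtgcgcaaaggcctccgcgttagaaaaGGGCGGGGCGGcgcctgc
Xrcc4 to Tmem167, chr13:90089609-90089666, minus strand: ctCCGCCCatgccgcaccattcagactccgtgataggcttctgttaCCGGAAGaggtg
Erh to Slc39a9, chr12:80644112-80644214, minus strand: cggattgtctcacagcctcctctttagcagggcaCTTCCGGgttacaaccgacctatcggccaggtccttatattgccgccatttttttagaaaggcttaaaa

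In the full RefSeq windows of 300 bases, which run from 250 bases before the start to 50 after it, GGGCGG was found in Xrcc4, Thap2 and Lsm7, 3 of the 5, and in 35.7% of all 32851 windows. The 2 matches of Lsm7 share a base. CCGGAAG was found at 2 places each in Xrcc4 and Erh, 2 of the 5 genes, and in 8.86% of all windows. CCAAT was found in Erh and Serpini1 (37.4% of all windows), and TATAAA and GCATGC in 0 of the 5 (13.6% and 7.93% of all windows). The GC share was 70.3% in Lsm7, 65.7% in Xrcc4, 63.7% in Thap2, 60% in Serpini1 and 53% in Erh, against a median of 52.7% over all windows. The windows held 13 to 40 CG dinucleotides, the most in Lsm7 and the fewest in Erh, against a median of 7.

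Lsm7 (ENSMUSG00000035215, chromosome 10, 80852825 to 80855209 on the minus strand of mm10, as in the lists) had the greatest difference of the 5. Its covered length was 1578 bases for Standard and 6661 for ELS. The difference of 5083 bases has rank 2 among protein-coding genes. Inside the gene the lists hardly differed: 2 peaks of 951 and 627 bases in Standard stood against 2 peaks of 898 and 669 bases in ELS. These sum to 11 bases fewer in ELS (-11). The rest of the ELS length is 1 more peak, upstream of the start, at chr10:80855322-80860416.

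That peak is 5094 bases wide, with its middle at -2660 bases from the start of Lsm7 (negative before the start), and lies along Sppl2b. The Standard list has a peak over every base of it, at chr10:80855314-80863023, which is 7709 bases wide. Both peaks begin within 8 bases of each other on the Lsm7 side, and the Standard peak runs 2607 bases further into Sppl2b. The middle of the Standard peak therefore lies at -3960 bases, and its lines name Sppl2b and not Lsm7. In each list this peak has one of the highest folds: 4.02 in Standard, where 5 peaks are higher, and 3.43 in ELS, where 4 are.

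The same layout recurred in the other 4 genes. Both lists name a gene on a peak only down to 3000 bases before a transcript start, counted to the middle of the peak. For 5 of the 5 genes the middle of the upstream ELS peak lay inside that limit, at -2912 to -2660 bases, and the middle of the Standard peak over it lay outside, at -3960 to -3280 bases. In each case the Standard peak covered 100% of the ELS peak and named the divergent neighbour alone. The ELS minus Standard difference in width was -2615 to -1284 bases. The edges on the side of the gene differed by 8 to 166 bases, and those on the side of the neighbour by 1118 to 2607 bases.

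**Figure D1:**
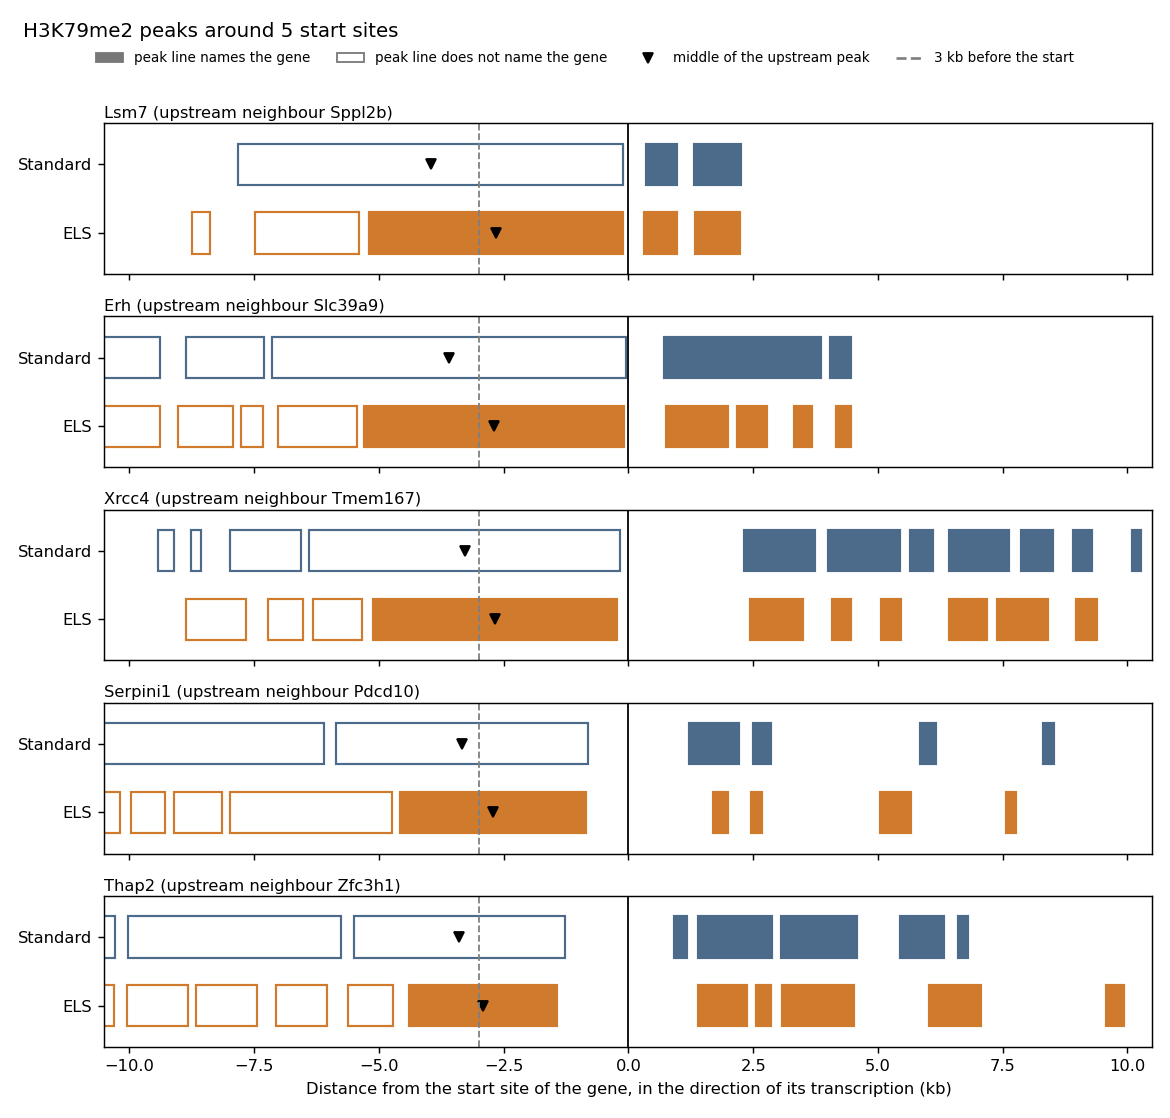
Peaks of the Standard (blue) and ELS (orange) lists around the start sites of Lsm7, Erh, Xrcc4, Serpini1 and Thap2; the x axis is the distance from the start in kb, positive in the direction of transcription. Filled boxes are peaks whose line names the gene, open boxes are peaks that do not, and triangles mark the middle of the upstream peak, which lies before the dashed line at 3 kb in the Standard list and after it in the ELS list for all 5 genes.

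Erh (ENSMUSG00000021131, chromosome 12, minus strand) was covered over 3569 bases in Standard and 7671 in ELS. Its upstream ELS peak, at chr12:80644439-80649634, is 5195 bases wide with a fold of 2.62. The Standard peak over it, at chr12:80644397-80651475, is 7078 bases wide with a fold of 2.69 and names Slc39a9. Inside Erh the Standard list had 2 peaks, one of them 3141 bases wide, and the ELS list had 4 peaks of 286 to 1231 bases, with an ELS minus Standard difference of -1093 bases in all.

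Xrcc4 (ENSMUSG00000021615, chromosome 13, minus strand) was covered over 5720 bases in Standard and 9265 in ELS. Its upstream ELS peak, at chr13:90089839-90094726, is 4887 bases wide with a fold of 2.34, and the Standard peak over it, at chr13:90089775-90096002, is 6227 bases wide with a fold of 2.76. Within the gene both lists had 7 peaks, summing to 5720 bases in Standard and 4378 in ELS. The ELS list reached deepest into Xrcc4, with a peak of 331 bases whose middle lies 23003 bases after the nearest start, where the farthest Standard peak has its middle at 9658 bases.

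Serpini1 (ENSMUSG00000027834, chromosome 3, plus strand) was covered over 1889 bases in Standard and 5059 in ELS. Its upstream ELS peak, at chr3:75552969-75556689, is 3720 bases wide with a fold of 2.22, and the Standard peak over it, at chr3:75551692-75556739, is 5047 bases wide with a fold of 2.45. Within the gene both lists had 4 narrow peaks, of 217 to 1006 bases in Standard and 213 to 608 in ELS.

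Thap2 (ENSMUSG00000020137, chromosome 10, minus strand) had the smallest difference, with 4334 bases in Standard and 7054 in ELS. Its upstream ELS peak, at chr10:115385871-115388824, is 2953 bases wide with a fold of 2.02, and its middle, at -2912 bases, lies closest of the 5 to the limit of 3000. The Standard peak over it, at chr10:115385705-115389942, is 4237 bases wide with a fold of 2.71. Inside Thap2 both lists had 5 peaks, with 4334 bases in Standard and 4101 in ELS.

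The ELS list was not bare where the Standard peak ran on. In each of the 5 genes 2 ELS peaks lay on the 1 Standard peak, the upstream one and a further one along the neighbour. Together they covered 94.2% of it at Xrcc4, 88.2% at Thap2, 95.8% at Erh, 95.8% at Serpini1 and 93.1% at Lsm7. The bases of the Standard peak without an ELS peak numbered 213 to 533.

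Counted over the same interval in both lists, the direction was the opposite for 5 of the 5. Without the upstream peak, ELS minus Standard was -1342 bases for Xrcc4, -233 for Thap2, -1093 for Erh, -550 for Serpini1 and -11 for Lsm7, and the values were the same when all peaks were clipped to the gene. With all peaks clipped to the gene widened by 3 kb at each end, the differences were -1406, -399, -1135, -600 and -19 bases in that order. With the upstream peak counted in both lists, each at its full width, they were -2682, -1517, -2976, -1877 and -2626 bases. That count is not over the same interval, as it leaves out the further ELS peak on the Standard peak. The upstream peak made up 41.9% of the ELS length in Thap2, 52.7% in Xrcc4, 67.7% in Erh, 73.5% in Serpini1 and 76.5% in Lsm7. Keeping only peaks with a fold at or above the common median of 1.94, or with q at or below 0.01, left the ELS length greater in 5 of 5, and so did taking lengths as a share of all peak length in the list. The upstream peak passed both filters in each gene.

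**Figure D2:**
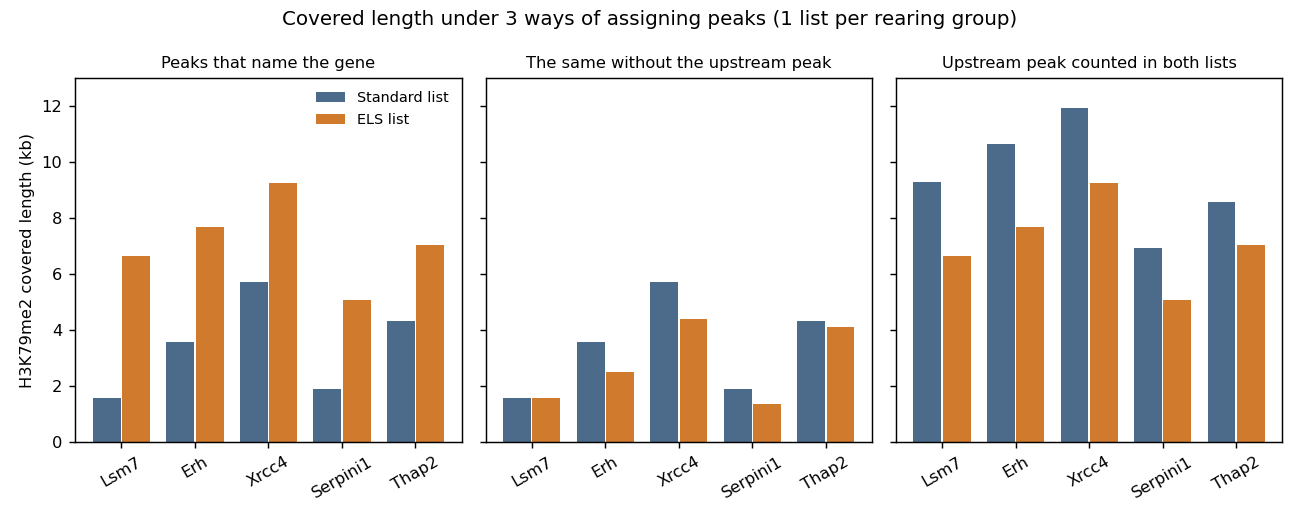
H3K79me2 covered length in kb (y axis) of the 5 genes in the Standard and ELS lists. Panels show lengths as named by the peak lines, without the upstream peak, and with the upstream peak counted in both lists. The last panel leaves out the further ELS peak that lies on the Standard peak. The ELS bar is the taller in the first panel, for example 6661 against 1578 bases for Lsm7, and the Standard bar is the taller in the others, where Lsm7 differs by 11 bases without the upstream peak.

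The start sites themselves were free of peaks. A gap between peaks held every listed transcript start of the 5 genes in both lists, and the RefSeq starts of the 5 genes and of their 5 neighbours. The gap was widest at Xrcc4 in Standard (2473 bases, against 2664 in ELS) and at Thap2 in ELS (2837 bases, against 2184 in Standard). It was narrowest at Lsm7, with 451 bases in Standard and 423 in ELS, and measured 764 and 856 bases at Erh and 2024 and 2551 at Serpini1. The gap was wider in ELS for 4 genes and narrower for Lsm7.

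The neighbours were covered over fewer bases in ELS in 5 of 5 pairs, as were 11371 of the 12673 genes. Sppl2b had 9287 bases in Standard and 9092 in ELS, Tmem167 9627 and 8848, Zfc3h1 13108 and 10082, Slc39a9 21053 and 16766, and Pdcd10 20521 and 15626. The lists as wholes differ in the same direction. The Standard list holds 117819 peaks over 126.1 Mb with a median width of 512 bases, and the ELS list 106374 peaks over 92.62 Mb with a median of 478 bases. The sources do not say how libraries were combined into a list or how deep each list is, and the part of depth in the lengths was not tested.

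The rule has its threshold at any gain above 0. The smallest gains inside it were 1 base, in Ddx19b (774 to 775 bases) and Gm23834 (588 to 589), and 4 genes just outside it, among them Mfsd4 with 188 bases in both lists, were equal. The 5 genes lay at the other end, at ranks 31 (Lsm7), 55 (Erh), 73 (Xrcc4), 88 (Serpini1) and 107 (Thap2) of 12673 by the size of the gain.

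The RNA of the 5 genes was then compared between groups. Libraries held 0.314 to 9.8 M counts (M, mega) in Standard GFP, 1.76 to 11.1 in ELS GFP, 2.48 to 7.88 in Standard Dot1l overexpression and 0.462 to 8.8 in ELS Dot1l knockdown, and 4 held under 1 M (Standard GFP replicates 1, 4 and 5, and knockdown replicate 7). RNA levels are in CPM, the counts per M counts of the library after its size is scaled by a TMM factor. Dot1l averaged 33.9 ± 10.8 CPM (SD, n = 8) in Standard GFP and 35.6 ± 11.4 in ELS GFP. It averaged 43.1 ± 19 in the libraries labelled overexpression and 43.1 ± 15.2 in those labelled knockdown. It passed in 0 of the 5 contrasts. For the libraries labelled overexpression its log2 difference from Standard GFP, 0.33 (SE 0.27, edgeR adjusted p = 0.741), has the sign of the label. For those labelled knockdown the difference from ELS GFP, 0.28 (SE 0.27, edgeR adjusted p = 0.985), has the sign opposite to the label. Neither difference passed, so directions drawn for these 2 groups rest on labels that Dot1l RNA does not bear out. Overexpression and knockdown below mean the libraries labelled so. Markers of medium spiny neurons were present in each group, with a summed level of 427 to 2739 CPM per library, as were those of astrocytes (1088 to 3457 CPM) and oligodendrocytes (319 to 960 CPM), so the RNA is that of a mixed tissue, in which fewer cells of a type and less RNA per cell cannot be told apart. Between ELS and Standard GFP, 10 of 11 medium spiny neuron markers had a negative log2 difference (median -0.87). So had 6 of 6 tested for astrocytes, 6 of 6 for oligodendrocytes and 5 of 5 for microglia, against 7173 of all 14016 genes tested. Single libraries weigh on some of these: Standard GFP replicate 5 held 44.9% of the group's summed CPM of Adora2a and 59% of Tmem119. Of the markers of endothelium 2 of 3 were positive (median summed level 50.4 CPM in Standard and 78.3 in ELS GFP), and of those of other neurons 2 of 4 (121.7 and 142.7 CPM). In these lists 0 markers passed the threshold. Gfap of the astrocyte list and P2ry12 of the microglia list had 0 counts in every library and were not tested. The reason for these empty rows was not examined. The part of cell makeup in the values below was not tested.

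None of the 5 genes passed the threshold in any contrast. edgeR's quasi-likelihood test with Benjamini-Hochberg adjustment over 14016 genes called 0 genes (0%) between ELS GFP and Standard GFP, where 1644 genes (11.7%) had an unadjusted p under 0.05, among them 1 of the 5, Thap2. DESeq2 called 88 genes in this contrast and limma voom 0, none of them one of the 5. For overexpression against Standard GFP the calls were 0 by edgeR, 42 by DESeq2 and 0 by limma, with 1524 genes (10.9%) at an unadjusted p under 0.05 in edgeR, among them Xrcc4 and Thap2. For knockdown against ELS GFP they were 0, 2 and 0, with 866 genes (6.18%) at an unadjusted p under 0.05 and 0 of the 5. Knockdown against Standard GFP gave 0, 76 and 0 calls and 1515 genes (10.8%), and overexpression against ELS GFP 0, 2 and 0 calls and 936 genes (6.68%), with 0 of the 5 among them. Contrasts that name the same group share its libraries.

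Lsm7 RNA was scarce. In CPM, the lowest, median and highest library were 0, 1.71 and 4.22 in Standard GFP, 0.204, 1.6 and 2.93 in ELS GFP, 1.11, 2.16 and 5.2 in overexpression, and 0.115, 1.8 and 4.24 in knockdown. All 4 groups overlapped. Standard GFP replicates 4 and 5 had 0 counts, which at their scaled library size allows up to 6.21 and 5.29 CPM, more than any other library of the group showed. The log2 difference was -0.38 (SE 0.60, edgeR adjusted p = 0.882) for ELS against Standard GFP, 0.37 (SE 0.60, adjusted p = 0.902) for overexpression and 0.16 (SE 0.60, adjusted p = 0.998) for knockdown against ELS GFP. The ELS value was -0.086 without Standard GFP replicate 3, and the overexpression value 0.14 without overexpression replicate 4. No difference in Lsm7 was detectable at this depth.

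Erh RNA was as thinly counted, with 0 to 78 counts per library. Its lowest, median and highest levels were 0, 2.13 and 4 CPM in Standard GFP, 0.366, 2.69 and 5.89 in ELS GFP, 3.06, 3.45 and 7.89 in overexpression, and 0.892, 3.16 and 9.11 in knockdown. In overexpression 8 of 8 libraries lay above the Standard GFP median, while the groups still overlapped. The same 2 shallow Standard GFP libraries had 0 counts, with the same upper limits. The log2 difference was 0.39 (SE 0.51, edgeR adjusted p = 0.843) for ELS, 0.93 (SE 0.51, adjusted p = 0.534) for overexpression and 0.40 (SE 0.48, adjusted p = 0.998) for knockdown against ELS GFP. The ELS value was 0.14 without ELS GFP replicate 5, and the knockdown value 0.039 without knockdown replicate 2. The library kit was one for DNA, used on cDNA, and does not mark strand, so reads of the overlap between Erh and Slc39a9 cannot be told apart.

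Xrcc4 RNA had 1 library far above the rest. Its lowest, median and highest levels were 7.05, 23.8 and 181 CPM in Standard GFP, 18, 28 and 31.7 in ELS GFP, 16.3, 21.3 and 28.9 in overexpression, and 18.6, 26.1 and 36.3 in knockdown. The lowest value, 7.05 CPM, is 4 counts. The 181 CPM belong to Standard GFP replicate 1, a library of 0.98 M counts that holds 54% of the group's summed CPM. The other 7 libraries of that group reach at most 31.7 CPM and overlap the other 3 groups.

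By mean, Xrcc4 was lower in ELS than in Standard GFP, by -0.67 on the log2 scale (SE 0.36, edgeR adjusted p = 0.478), and 5 of the 8 ELS libraries lay above the Standard median. Without Standard GFP replicate 1 the difference was 0.20, on the other side of 0. For overexpression it was -0.93 (SE 0.36, adjusted p = 0.303), with 6 of 8 below the Standard median, and -0.05 without that library. Against ELS GFP, knockdown differed by 0.04 (SE 0.36, adjusted p = 0.998).

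Thap2 RNA showed the same form with another library. Its lowest, median and highest levels were 3.32, 6.41 and 81 CPM in Standard GFP, 1.46, 6.66 and 12.4 in ELS GFP, 3.61, 5.43 and 10.54 in overexpression, and 5.49, 7.12 and 12.1 in knockdown. The 81 CPM are 46 counts in Standard GFP replicate 5, a library of 0.546 M counts, and make up 61.4% of that group's summed CPM. All groups overlapped, and the medians of Standard and ELS GFP were nearly equal.

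By mean, Thap2 differed by -1.10 (SE 0.49, edgeR adjusted p = 0.349) between ELS and Standard GFP, with 4 of 8 ELS libraries on each side of the Standard median. Without Standard GFP replicate 5 the difference was -0.04. For overexpression it was -1.36 (SE 0.49, adjusted p = 0.259), with 7 of 8 below the Standard median, and -0.30 without that library. Knockdown differed from ELS GFP by 0.13 (SE 0.47, adjusted p = 0.998).

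Serpini1 was counted in every library, with 12 counts or more. Its lowest, median and highest levels were 21.1, 43.1 and 85.1 CPM in Standard GFP, 35.3, 60.1 and 125 in ELS GFP, 31.2, 53.5 and 181 in overexpression, and 20.4, 65.6 and 79.9 in knockdown. The groups overlapped throughout. The log2 difference was 0.44 (SE 0.31, edgeR adjusted p = 0.646) for ELS, with 5 of 8 above the Standard median, 0.51 (SE 0.31, adjusted p = 0.599) for overexpression, and -0.04 (SE 0.31, adjusted p = 0.998) for knockdown against ELS GFP. The 181 CPM of overexpression replicate 1 hold 34% of that group's summed CPM, and the difference was 0.11 without it. That library has a TMM factor of 0.53, which raises each of its CPM values. It was also the highest of its group for Zfc3h1, Paxx, Drosha, Mllt3 and Mllt10, though not for Lsm7, Erh, Xrcc4 or Thap2. The part of scaling in its Serpini1 value was not tested. The ELS difference was 0.24 without ELS GFP replicate 2, the library at 125 CPM.

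**Figure D3:**
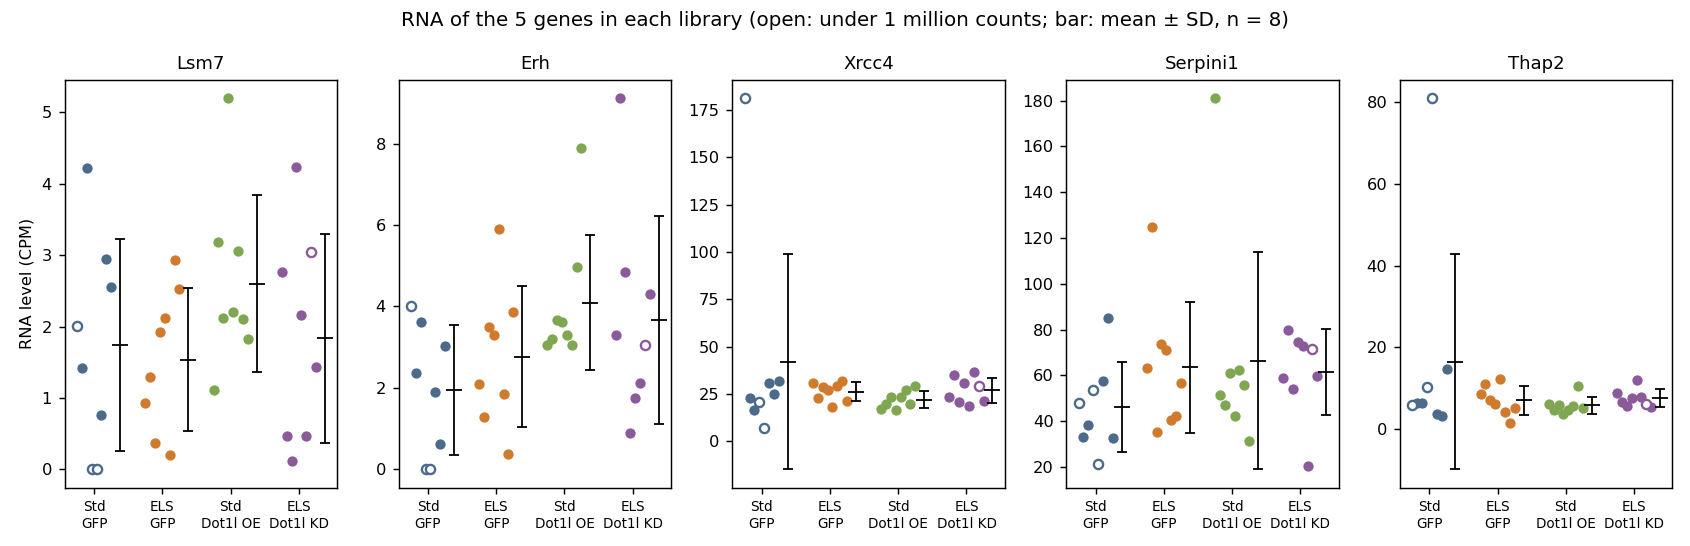
RNA level in CPM (y axis, linear, own scale per gene) of the 5 genes in each of 32 libraries, by group; open points are libraries under 1 M counts, and bars give the mean ± SD of 8. All groups overlap, and the highest points of Xrcc4 (181 CPM) and Thap2 (81 CPM) are single shallow Standard GFP libraries.

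**Figure D4:**
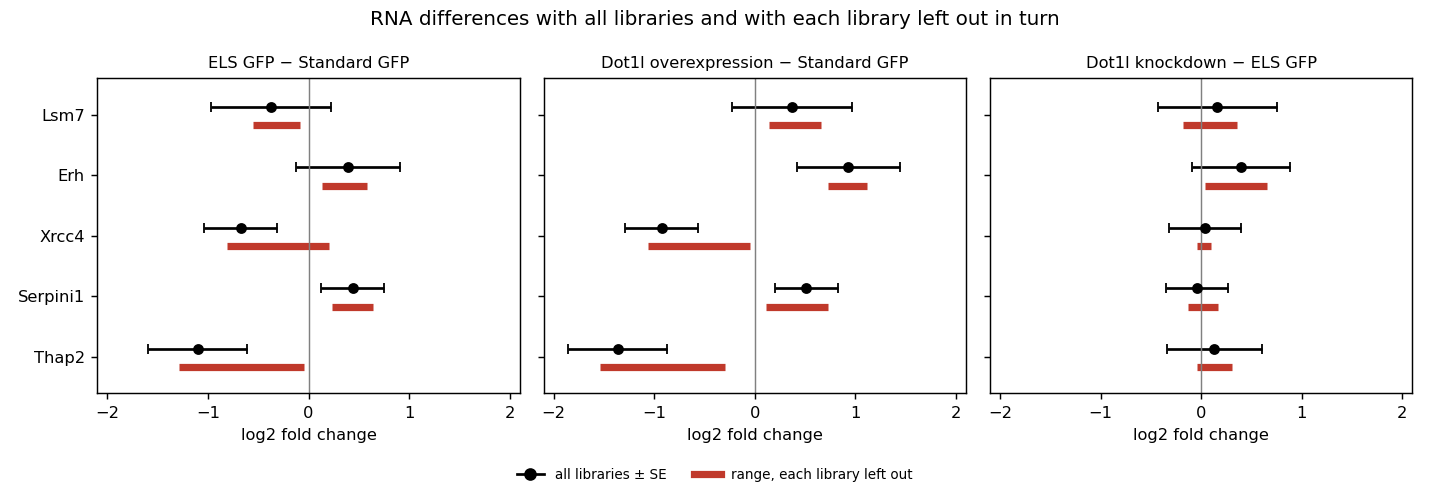
log2 fold change of the 5 genes in 3 contrasts (x axis), with the SE from edgeR (black) and the range when each library of the 2 groups is left out in turn (red). The red range of Xrcc4 in the ELS contrast runs from -0.81 to 0.20 and that of Thap2 from -1.29 to -0.04.

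In the contrasts across both rearing and manipulation, knockdown against Standard GFP gave -0.64 for Xrcc4, -0.97 for Thap2, 0.79 for Erh, 0.40 for Serpini1 and -0.21 for Lsm7. Overexpression against ELS GFP gave -0.25 for Xrcc4, -0.26 for Thap2, 0.54 for Erh, 0.07 for Serpini1 and 0.74 for Lsm7. The smallest edgeR adjusted p was 0.475 (Thap2) in the former and 0.983 (Lsm7) in the latter.

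The RNA of the divergent neighbours did not pass the threshold either. Between ELS and Standard GFP the log2 difference was -0.28 for Sppl2b (SE 0.44), 0.30 for Slc39a9 (SE 0.29), 0.02 for Tmem167 (SE 0.27), 0.31 for Pdcd10 (SE 0.30) and -0.36 for Zfc3h1 (SE 0.30), with edgeR adjusted p of 0.713 to 0.991. Within a pair the signs were alike for Lsm7 with Sppl2b, Erh with Slc39a9, Serpini1 with Pdcd10 and Thap2 with Zfc3h1. For the last pair, Standard GFP replicate 5 held 61.4% of the group's summed CPM of Thap2 and 34.1% of Zfc3h1. The log2 ratio of the medians was 0.055 for Thap2 and 0.0041 for Zfc3h1. Xrcc4 and Tmem167 had unlike signs with all libraries. Without Standard GFP replicate 1 Xrcc4 was at 0.20, and Tmem167 has no value in that setting.

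Other genes of the pathways were taken from lists, each of which counts its member of the 5 (or Dot1l) as well, and those with the smallest p in the ELS contrast are named for each. No gene of the 6 lists passed the edgeR threshold in the ELS contrast, and the median log2 difference over all 14016 genes was -0.01. Of 9 tested genes of non-homologous end joining 6 were higher and 3 lower in ELS (median 0.12). Dclre1c, which encodes the nuclease Artemis, differed by -0.69 (SE 0.34), and Paxx, a paralog of Xrcc4, by 1.34 (SE 0.68), beside Xrcc4 itself. Of 10 tested genes of the LSm ring and the U6 particle 7 were lower (median -0.46), with Lsm6 at -0.98 (SE 0.41), Lsm3 at -0.87 (SE 0.50) and Lsm1, of the cytoplasmic ring, at -0.54 (SE 0.35).

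Among 7 tested THAP genes 5 were higher in ELS (median 0.72), with Thap4 at 0.86 (SE 0.53) and Thap7 at 1.07 (SE 0.74). ELS GFP replicate 2 holds 62.8% of the summed ELS GFP CPM of Thap7. Thap2 is the 1 gene of the 3 named here with a negative value, which was -0.04 without Standard GFP replicate 5. Among 7 tested plasminogen activators and serpins 4 were higher and 3 lower (median 0.22). Plau, the activator urokinase, differed by -1.82 (SE 1.00, edgeR adjusted p = 0.49), beside Serpini1 itself. Standard GFP replicate 5, the library that is high for Thap2, holds 83.8% of the summed Standard GFP CPM of Plau. Of 6 tested genes of the list of ERH and its partners, Erh included, 4 were lower (median -0.20), with Safb at -1.01 (SE 0.38), Safb2, its paralog, at -0.74 (SE 0.29) and Drosha, the nuclease of microRNA precursors, at -0.26 (SE 0.29). Of DOT1L and 6 partners 5 were lower (median -0.13), with Mllt1 at -0.53 (SE 0.28), Aff4 at -0.17 (SE 0.15) and Mllt6 at 0.17 (SE 0.22). Standard GFP replicate 5 was also the highest of its group for Dclre1c, Lsm6, Safb2, Drosha, Mllt1 and Aff4, each with a negative difference. For Safb the highest was Standard GFP replicate 6, with 47.5% of the summed Standard GFP CPM. Dgcr8, of the ERH list, had 0 counts in every library and was not tested.

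Across the 32 libraries, the genes with the RNA pattern most like that of each gene were listed by Pearson correlation of log2 CPM with a prior count of 2. For Xrcc4 they were Trpv2 (r = 0.84), Bahcc1 (0.83) and Spink10 (0.82), and for Thap2 Nsun4 (0.80), Polr1b (0.78) and Tctn1 (0.75). Without the 4 shallow libraries those of Xrcc4 fell to 0.44, 0.56 and 0.32 and those of Thap2 to 0.56, 0.58 and 0.57. For Erh they were Gemin7 (0.74), Efna3 (0.73) and Manea (0.72), at 0.53, 0.47 and 0.52 without the shallow libraries. Lsm7 was closest to Phax (0.78), Riiad1 (0.75) and Zfp553 (0.74), which stayed at 0.72, 0.68 and 0.64. For Serpini1, Ubxn7 (0.80), Kcnj3 (0.79) and Ehmt1 (0.78) were at 0.79, 0.77 and 0.77. The libraries outlying for Serpini1 (overexpression replicate 1, ELS GFP replicate 2 and knockdown replicate 6) are not shallow and were kept. Their weight in its correlations was not tested. The libraries share depth and groups, so these values are a description.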

How the data were processed

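The 5 genes, the gene lists and the tests were chosen with earlier results of these data known. The authors deposited raw counts per Ensembl gene, not normalized, for 32 RNA libraries, and an annotated list of H3K79me2 peaks for each rearing, in which, per the file headers, peaks carry q-values and folds (ratios). Tools named in the submitters' processing notes are FastQC, HISAT2, featureCounts and DESeq2, with the build mm10; the notes give no roles. No label or header names the peak caller, the way libraries were combined or the strand setting. Whether the samples of a group are separate animals is not stated in the labels, so p-values measure the spread between samples. The ChIP and input libraries were not analysed here one by one.

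Each distinct peak was counted once per gene name. The stated distance was checked against the peaks: it runs from the transcript start to the middle of the peak, and its minimum is -3000 in both lists. After filterByExpr (14016 of 52636 genes left) and TMM scaling, edgeR 4.0.16 under R 4.3.3 fitted 4 group means with 28 residual degrees of freedom, and its robust quasi-likelihood test gave p-values, adjusted by Benjamini-Hochberg with a threshold of 0.05. The SE is the absolute log2 fold change over the square root of F. Symbols matched 52403 gene IDs, and 0 count columns were left unmatched. CPM uses TMM library sizes. Named were the 5 genes, Dot1l, the neighbours that share a peak line, the 3 genes with the smallest p per list in the ELS contrast (1 of them is not reported here), and the 3 genes closest by correlation. Alternatives were DESeq2 1.42.0, limma 3.58.1, other scaling, filters and subsets. Counts with known changes were simulated: for the ELS contrast edgeR called 16% of 2-fold and 81% of 4-fold changes. Genes with a low mean CPM were not given changes. The shares therefore do not cover genes as scarce as Lsm7 (mean 1.74 CPM in Standard GFP and 1.54 in ELS GFP). Single high libraries, such as those of Xrcc4 and Thap2, were not built in. Limits on a count of 0 use 3 counts and cover counting error only. Sequences are RefSeq, GRCm38.p6. Peak positions are as in the lists, which do not say whether numbering starts at 0 or 1. Python 3.11.15, pandas 2.3.3, numpy 2.4.6 and matplotlib 3.10.9 were used.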

Additional observations from a re-analysis of the deposited data

Results flagged for a closer look

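In 7 of 20 combinations of gene and group (5 genes, 4 groups of 8), 1 library lay apart, with a gap to its nearest neighbour, as a share of the group's range, above Dixon's 95% value. For values with a normal spread, about 1 in 20 groups passes that value by chance. CPM on a linear scale was not shown to have such a spread, and the 20 combinations share the same 32 libraries. The 7 are therefore a description. Xrcc4 stood at 181.2 CPM (181 counts) in Standard GFP replicate 1, where the next library had 31.7 CPM. Thap2 stood at 81 CPM (46 counts) in Standard GFP replicate 5, next 14.7 CPM, and at 10.54 CPM (70 counts) in overexpression replicate 7, next 6.13 CPM. Erh stood at 7.89 CPM (39 counts) in overexpression replicate 8, next 4.97 CPM. Serpini1 stood at 181 CPM (650 counts) in overexpression replicate 1, next 62.2 CPM, at 124.6 CPM (193 counts) in ELS GFP replicate 2, next 73.9 CPM, and at 20.4 CPM (87 counts) in knockdown replicate 6, where the next higher library had 54 CPM. The libraries of the first 2 of these values hold under 1 M counts, and the others 1.76 to 6.8 M. Overexpression replicate 1 has a TMM factor of 0.53, which raises its CPM. Lsm7 had no such library in any group.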

How the results depend on the processing

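The gain in covered length held in 5 of 5 genes with peaks filtered by fold or by q and as a share of the list, and in 0 of 5 under 5 settings: peaks inside the gene or within 1 kb of its start, peaks clipped to the gene, and, chosen after seeing the data, peaks clipped to the gene widened by 3 kb, the upstream peak counted in both lists, and no upstream peak. In the order Xrcc4, Thap2, Erh, Serpini1 and Lsm7 the differences were -1342, -233, -1093, -550 and -11 bases in the first, second and last of these. In the widened gene they were -1406, -399, -1135, -600 and -19. With the upstream peak in both lists they were -2682, -1517, -2976, -1877 and -2626. That setting leaves out the further ELS peak on the Standard peak, so it does not compare like intervals.

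The count of genes called by edgeR was 0 in each of the 5 contrasts, and 0 with RLE factors, no filter, limma or only the groups compared. Without libraries under 1 M counts it was 7 for ELS against Standard GFP and 18 for overexpression against Standard GFP. DESeq2 called 88, 42, 2, 76 and 2 genes (ELS and overexpression against Standard GFP, knockdown against ELS GFP, knockdown against Standard GFP, overexpression against ELS GFP). Leaving out 1 library gave 0 in 4 contrasts and 0 to 15 for knockdown against Standard GFP, where it was 7 without Standard GFP replicate 2 and 15 without replicate 7. With the title number as a replicate block it was 0 in each contrast; a group holds 1 to 4 libraries of a number, so the numbers do not pair samples. The cause of these differences was not tested.

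Of 172 values of the 5 genes under the other settings, and 400 with 1 library left out, 0 passed the threshold; the smallest adjusted p was 0.137 (Thap2, overexpression against Standard GFP, DESeq2). With only the 2 groups compared, Lsm7 fell under the filter in the 3 contrasts with Standard GFP and has no value. The sign turned in 10 of the 172. For Xrcc4 the value was 0.047 without shallow libraries and 0.17 by DESeq2 in the ELS contrast, 0.069 and 0.16 for knockdown against Standard GFP, and -0.00081 by DESeq2 and -0.014 by limma for knockdown against ELS GFP. For Thap2 it was 0.0079 (ELS) and 0.16 (knockdown against Standard GFP) without shallow libraries. For Serpini1, limma gave 0.026 for knockdown and -0.18 for overexpression, both against ELS GFP. With 1 library left out the sign turned in 16 of 400. The ranges were -0.81 to 0.20 (Xrcc4, ELS); -0.040 to 0.093 (Xrcc4), -0.038 to 0.31 (Thap2), -0.13 to 0.16 (Serpini1) and -0.18 to 0.35 (Lsm7) for knockdown against ELS GFP; -0.78 to 0.23 (Xrcc4), -1.13 to 0.088 (Thap2) and -0.55 to 0.078 (Lsm7) for knockdown against Standard GFP; and -0.34 to 0.28 (Serpini1) for overexpression against ELS GFP.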

Other observations

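The upstream layout of the 5 genes was looked for in every gene longer in the ELS list. Of 1298 such genes, 444 had an ELS peak bearing their name that lay on a Standard peak without it, and in 404 (31.1%) the gain was gone once those peaks were left out. Among the 605 protein-coding genes of this kind the numbers were 107 and 97 (16%). Among the 20 protein-coding genes with the largest gain, which include the 5, the gain was gone in 19. With all peaks clipped to each gene widened by 3 kb at each end, 777 of the 1298 remained longer in ELS, and 839 of all 12673 genes (6.62%) were.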
